A study of Mus musculus with 9 samples.

Results

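The genes described here are 45 interferon-stimulated genes, read from colon RNA-seq of 9 mice by their gene symbol. Of the 45 listed genes, 43 were among the 21498 gene symbols of the deposited files, and Mx2 and Cxcl11 were not analysed here. Members were matched by symbol alone, and all 43 genes passed the filter on low values (at least 0.1 FPKM in at least 3 samples), as 15278 genes did in all. FPKM is a fragment count divided by transcript length and library size. It does not correct for the make-up of the RNA, and totals ran from 308377 to 408811 per sample. Levels set side by side between genes or between mice are therefore approximate.

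The mice were male ICR mice, an outbred stock, 5 weeks old at the start, with 3 mice in each of 3 groups, all killed at the end of week 18. Control mice received neither AOM, DSS nor antibody. AOM/DSS + IgG Ab mice received 1 intraperitoneal injection of 10 mg/kg azoxymethane (AOM, a colon carcinogen) and then 3 cycles of dextran sulfate sodium (DSS, a polymer that damages the epithelial lining) with the water they drank, at 2% for 7 days in the first cycle and at 1.5% for 5 days in each later one, with 1.5 mg/kg of a negative control IgG antibody given into a vein every 2 days during the DSS cycles. AOM/DSS + anti-S100a9 Ab mice had the same AOM and DSS and, on the same schedule, 1.5 mg/kg of a neutralizing rabbit polyclonal antibody against mouse S100a9, a calcium-binding protein abundant in neutrophils. Below, mice of these groups are called IgG mice and anti-S100a9 mice. The labels call the tissue colorectal adenocarcinoma in both AOM/DSS groups and normal mucosa in Control, whereas the study's text speaks of intestinal mucosa in each group and, for AOM/DSS + IgG Ab, also of colon adenocarcinoma. No sample is labelled as AOM/DSS without any antibody, or as antibody without AOM/DSS.

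Interferons are secreted proteins that put cells into an antiviral state. Type I interferons (Ifna and Ifnb genes) and type III interferons (Ifnl genes) act through the kinases Jak1 and Tyk2 and a complex that holds Stat2 and Irf9 and binds the interferon-stimulated response element (ISRE) of target promoters. The type II interferon, Ifng, is made by T and NK cells and acts on promoters that hold the gamma-activated site (GAS), and many target genes respond to both routes. In the gut, type III interferon acts mainly on epithelial cells, and Ifng acts on epithelial cells and macrophages alike.

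Epithelial marker genes were present in all 9 samples, with summed levels of 3686 to 5394 FPKM over 7 of 7 markers. Adipocyte markers (4 of 4 found) summed to 34.8 to 153.8 FPKM in Control, to 0 to 13.8 FPKM in AOM/DSS + IgG Ab and to at most 1.22 FPKM in AOM/DSS + anti-S100a9 Ab. Rps18, Ppia and Gapdh are highly expressed in most cells but were listed below 1 FPKM in every sample, so a gene at 0 is described only as listed at 0. IgG replicate 1 stood apart from the Control and anti-S100a9 mice, with correlations of log2 levels across genes of 0.839 to 0.864, against 0.879 to 0.926 for the other 2 IgG mice, and it held the highest value of the 9 mice in 29.8% of all genes. No fragment numbers come with these values, so their depth is unknown, and in bulk tissue fewer cells of a type and less RNA per cell cannot be told apart.

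The members varied widely between mice of the same group. Averaged over the 43 genes, the level on the log2(FPKM + 0.1) scale was 2.66, 2.48 and 2.94 in the 3 Control mice, 2.43, 3.61 and 2.33 in the IgG mice and 2.71, 3.21 and 3.80 in the anti-S100a9 mice, in the order of replicates 1 to 3. The same average over all 15278 genes lay between 2.24 and 2.41 in the 9 mice. Replicate 2 of AOM/DSS + IgG Ab therefore stood well above the other mice of its group, and within AOM/DSS + anti-S100a9 Ab replicate 1 was the lowest and replicate 3 the highest.

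Gene by gene the same mice led. Replicate 2 of AOM/DSS + IgG Ab held the highest FPKM of its group in 38 of 43 members (88.4%, against 26.8% of all genes). Replicate 3 of AOM/DSS + anti-S100a9 Ab was the highest of its group in 40 of 43 members (93.0%, against 39.6% of all genes), and replicate 1 was the lowest in 36 of 43 (83.7%, against 23.7%). In Control, replicate 3 was the highest in 26 of 43 (60.5%, against 38.8%). The SD within a group on the log2 scale had a median over the members of 0.37 in Control, 0.82 in AOM/DSS + IgG Ab and 0.56 in AOM/DSS + anti-S100a9 Ab, and over all genes of 0.29, 0.34 and 0.18. The spread of the members was thus above that of all genes in each group, and highest in AOM/DSS + IgG Ab.

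**Figure D1:**
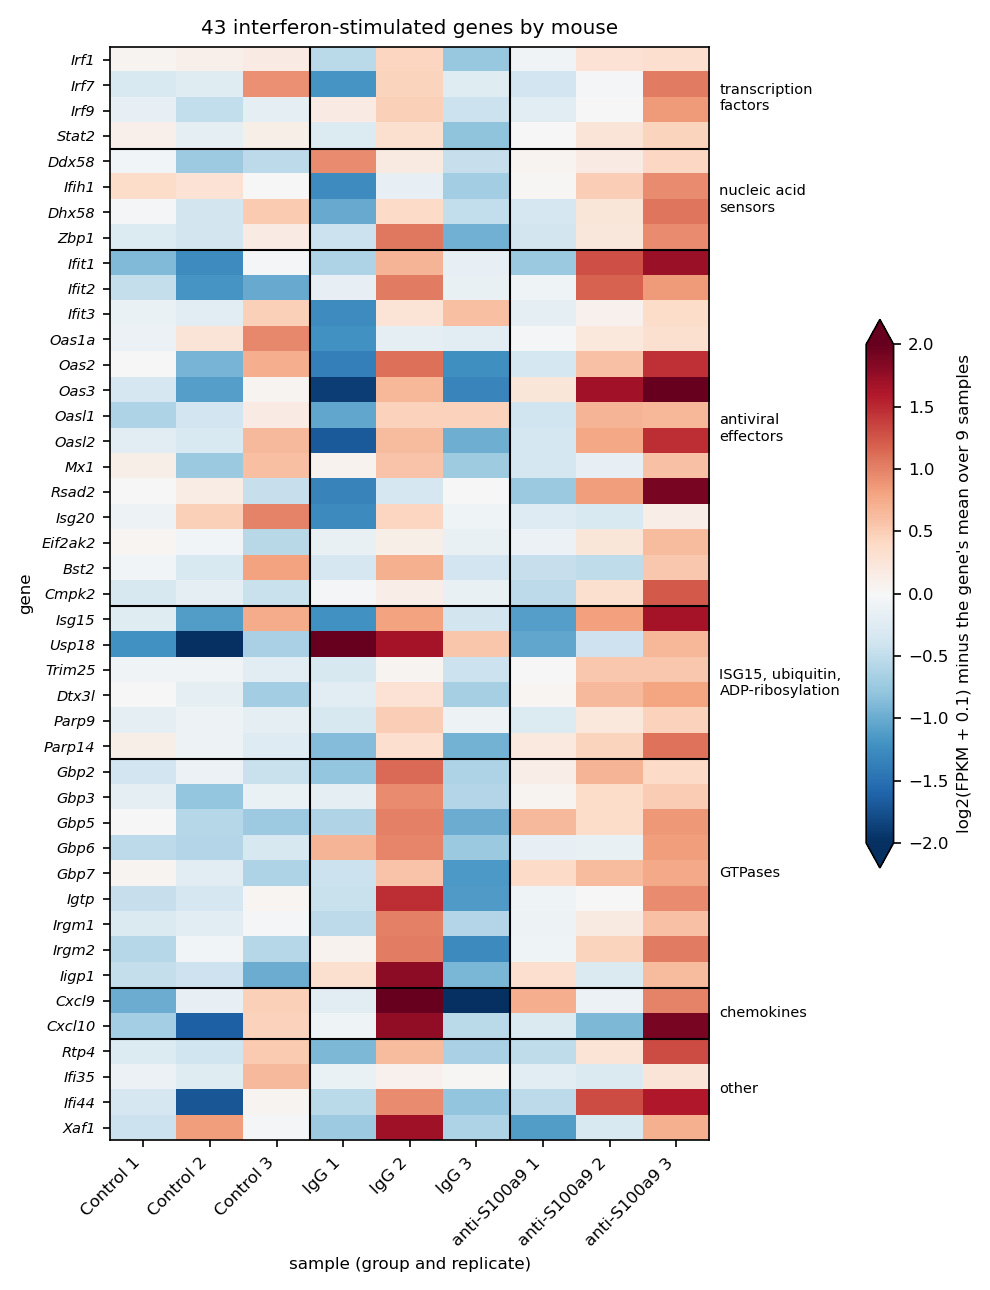
Level of each of the 43 interferon-stimulated genes (rows, ordered by role) in each of the 9 mice (columns), as log2(FPKM + 0.1) minus the gene's mean over the 9 mice, with red above and blue below that mean and colors capped at -2 and 2. Replicate 2 of AOM/DSS + IgG Ab (IgG 2) and replicate 3 of AOM/DSS + anti-S100a9 Ab were mostly red, and Usp18 was red in all 3 IgG mice.

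**Figure D2:**
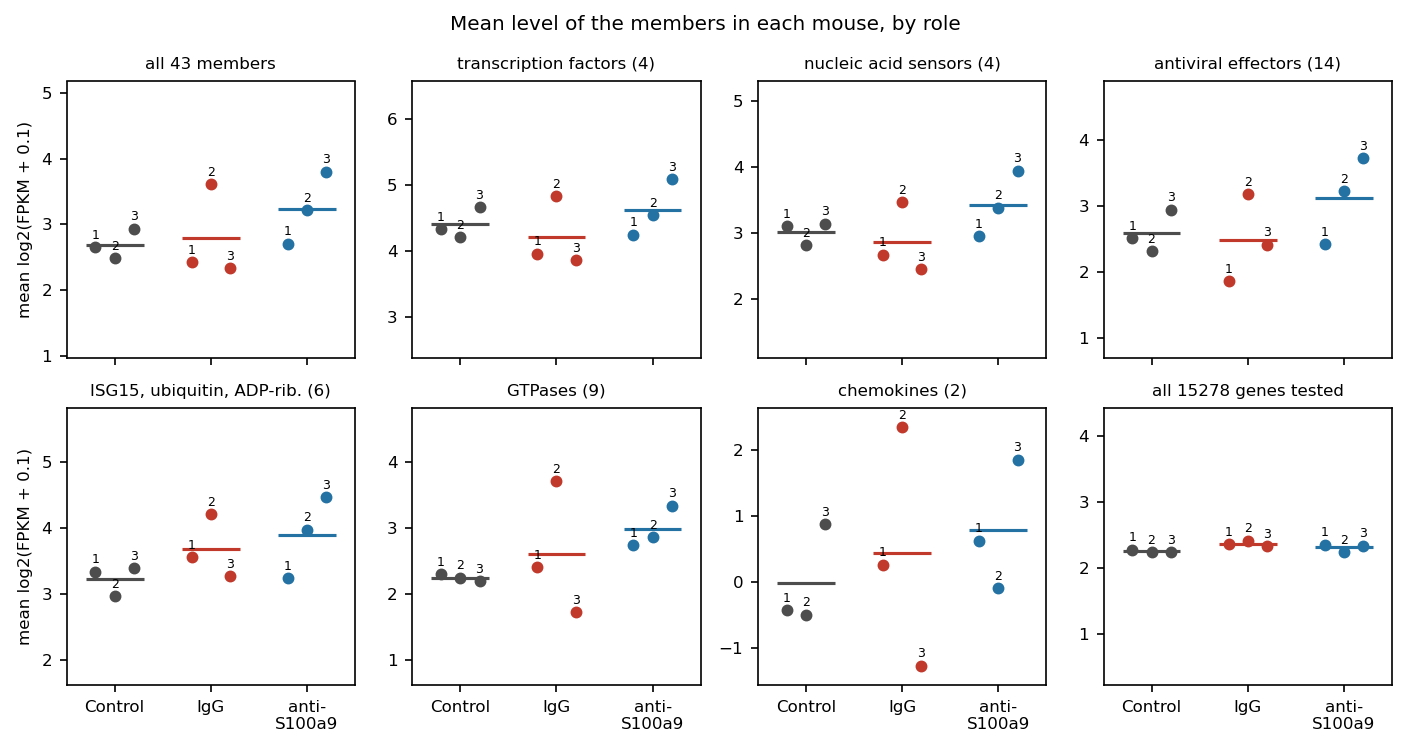
Mean log2(FPKM + 0.1) of the members of each role in each mouse (points, numbered by replicate), with the mean of 3 mice as a bar and the number of genes in brackets, and with each panel spanning the same range of log2 units. Over all 43 members IgG replicate 2 lay at 3.61 and the other IgG mice at 2.43 and 2.33, whereas the mean over all genes tested lay between 2.24 and 2.41.

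IgG replicate 2 led among the GTPases and anti-S100a9 replicate 3 among the antiviral effectors. Of the 9 interferon-inducible GTPases, 7 (Gbp2, Gbp3, Gbp5, Gbp6, Igtp, Irgm1 and Iigp1) had their highest value of all 9 mice in AOM/DSS + IgG Ab replicate 2, where 5.06% of all genes did. Of the 14 antiviral effectors found, 0 had their highest value of all 9 mice in that mouse, and 7 (Ifit1, Oas2, Oas3, Oasl2, Rsad2, Eif2ak2 and Cmpk2) had it in AOM/DSS + anti-S100a9 Ab replicate 3, where 8.46% of all genes did. Over the 43 members the counts were 12 for the IgG mouse and 21 for the anti-S100a9 mouse. The lowest value of the 9 mice lay in IgG replicate 1 for 15 members (34.9%, against 19% of all genes) and in IgG replicate 3 for 12 (27.9%, against 11.5%).

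**Figure D3:**
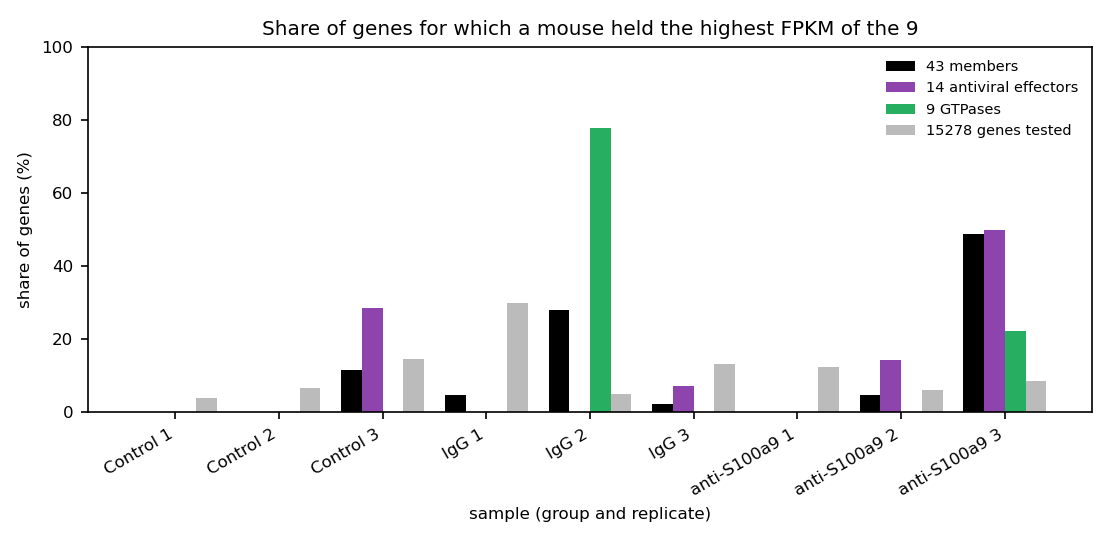
Share of genes (%) whose highest FPKM of the 9 mice lay in each mouse, for the 43 members, the 14 antiviral effectors, the 9 GTPases and all 15278 genes tested. AOM/DSS + IgG Ab replicate 2 held 77.8% of the GTPases and 0 of the antiviral effectors, and AOM/DSS + anti-S100a9 Ab replicate 3 held 50.0% of the antiviral effectors.

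Marker genes of lymphocytes, dendritic cells, macrophages, fibroblasts, smooth muscle and endothelium differed between the same mice. The 4 B cell markers summed to 7.33, 104.8 and 12.2 FPKM in IgG replicates 1 to 3, to 120.8, 24.95 and 232.2 in the Control mice and to 171.2, 47.3 and 188.4 in the anti-S100a9 mice. The 10 T and NK cell markers summed to 25.99, 32.6 and 9.30 FPKM in the IgG mice, to 40.8, 12.7 and 54.6 in the Control mice and to 44.1, 30.6 and 50.5 in the anti-S100a9 mice. Both lists were highest in replicate 2 within AOM/DSS + IgG Ab, as the members were, and none of these markers was at 0 in all 9 mice. In AOM/DSS + anti-S100a9 Ab, replicate 1 had B cell and T and NK cell sums near those of replicate 3 although the members were lowest in replicate 1. Markers of plasmacytoid dendritic cells, a source of type I interferon, summed to 19.6, 30.3 and 8.25 FPKM in the IgG mice, to 32.0, 11.0 and 41.7 in the Control mice and to 40.4, 15.6 and 41.5 in the anti-S100a9 mice, with Irf8 listed at 0 in all 9. The 6 dendritic cell markers summed to 8.06, 15.3 and 5.11 FPKM in the IgG mice, to 12.5, 7.77 and 13.1 in the Control mice and to 11.9, 6.85 and 10.8 in the anti-S100a9 mice, so that replicate 2 was again the highest IgG mouse. Among the anti-S100a9 mice their sum was highest in replicate 1, unlike the members. The 8 macrophage markers summed to 359.8, 439.7 and 545.5 FPKM in the anti-S100a9 mice, to 430.9, 315.4 and 547.9 in the Control mice and to 258.2, 520.8 and 602.7 in the IgG mice. Within AOM/DSS + anti-S100a9 Ab they were lowest in replicate 1 and highest in replicate 3, as the members were. Within AOM/DSS + IgG Ab they were highest in replicate 3, the lowest IgG mouse in 24 of 43 members. The 7 neutrophil markers summed to 128.2, 415 and 610 FPKM in the IgG mice and to at most 178.4 elsewhere, so that IgG replicate 3, low in most members, had the highest sum. The part of these cells in the members' levels was not tested.

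The first comparison asked how tissue of AOM/DSS mice differed from normal mucosa. Of the 43 members, 1 (Usp18) was higher in AOM/DSS + IgG Ab than in Control at an adjusted p under 0.05, or 2.33%, while 8.18% of all genes tested were called higher. No member was called lower, where 3.01% of all genes were. limma, fitted to log2(FPKM + 0.1) of all 9 samples, gave 2 members higher and 2 lower at an unadjusted p under 0.05, where 19.4% of all genes were higher and 10.1% lower. The median log2 fold change of all genes was 0.09, with 57.6% above 0, and that of the members was -0.01, with 21 of 43 above 0. It was -0.38, with 11 above 0, without IgG replicate 2, and 0.33, with 27 above 0, without IgG replicate 3. After quantile normalization, which moved the median of all genes to -0.03, that of the members was -0.13, and the calls over all genes went from 1250 higher and 460 lower to 947 and 631. The 95% interval of the log2 fold change lay within -1 to 1 for 7 of the 43 members, against 51.4% of all genes, so for most of them the interval reached beyond a 2-fold change.

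The second comparison asked what the antibody against S100a9 changed within AOM/DSS, and it shares its IgG samples with the first. Of the 43 members, 1 (Ifih1) was higher in AOM/DSS + anti-S100a9 Ab than in AOM/DSS + IgG Ab, while 6.72% of all genes were called higher. Again 0 members were called lower, whereas 14.4% of all genes were, and at an unadjusted p under 0.05 limma gave 6 members higher (14.9% of all genes) and 1 lower (24.2%). The median log2 fold change of all genes was -0.06, with 46.4% above 0, and that of the members was 0.48, with 35 of 43 above 0. With 1 mouse left out it ran from 0.18, with 30 above 0, without anti-S100a9 replicate 3 to 0.83, with 40 above 0, without IgG replicate 2, and it was 0.27 without IgG replicate 1 and 0.26 without IgG replicate 3. With quantile normalization the calls over all genes went from 1026 higher and 2193 lower to 1389 and 1706. The interval lay within -1 to 1 for 5 members, against 43.9% of all genes.

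The third comparison set AOM/DSS + anti-S100a9 Ab against Control and shares samples with both others. In it, 0 members passed in either direction, as 0.00655% of all genes did in each direction (1 gene each). At an unadjusted p under 0.05, 5 members were higher (8.87% of all genes) and 0 lower (7.1%). The median log2 fold change of the members was 0.60 with 38 of 43 above 0, and that of all genes was 0.04, with 53.3% above 0. The members' median was 0.21, with 33 above 0, without anti-S100a9 replicate 3, and 0.80, with 39 above 0, without anti-S100a9 replicate 1. The 95% interval was within -1 to 1 for 8 members, against 54.5% of all genes.

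The groups were also compared by whether their mice overlapped. All 3 IgG mice lay above all Control mice for 3 members (Usp18, Ifit2 and Cmpk2, 6.98%), against 20.7% of all genes, and below them for 2 (Ifih1 and Oas1a), against 10.2%. All 3 anti-S100a9 mice lay above all IgG mice for 2 members (Ifih1 and Oas1a), against 18.5% of all genes, and below them for 0, against 28.5%. For 12 members (27.9%), among them 6 GTPases (Gbp2, Gbp3, Gbp5, Gbp6, Gbp7 and Iigp1), all anti-S100a9 mice lay above all Control mice, against 17.3% of all genes, and for 0 members below, against 13.7%.

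The thresholds that the study used with DESeq (above 2-fold with an unadjusted p below 0.05) were here applied to the limma fit. By them, 2 members were higher in AOM/DSS + IgG Ab than in Control (Ifit2 and Usp18, 8.43% of all genes) and 0 lower (5.19%). Ifih1, Oas3 and Parp14 were higher in AOM/DSS + anti-S100a9 Ab than in AOM/DSS + IgG Ab (7.64% of all genes) and Usp18 lower (8.38%), and Ifit1, Ifit2 and Oas3 were higher than in Control (2.28%) and 0 lower (0.864%).

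**Figure D4:**
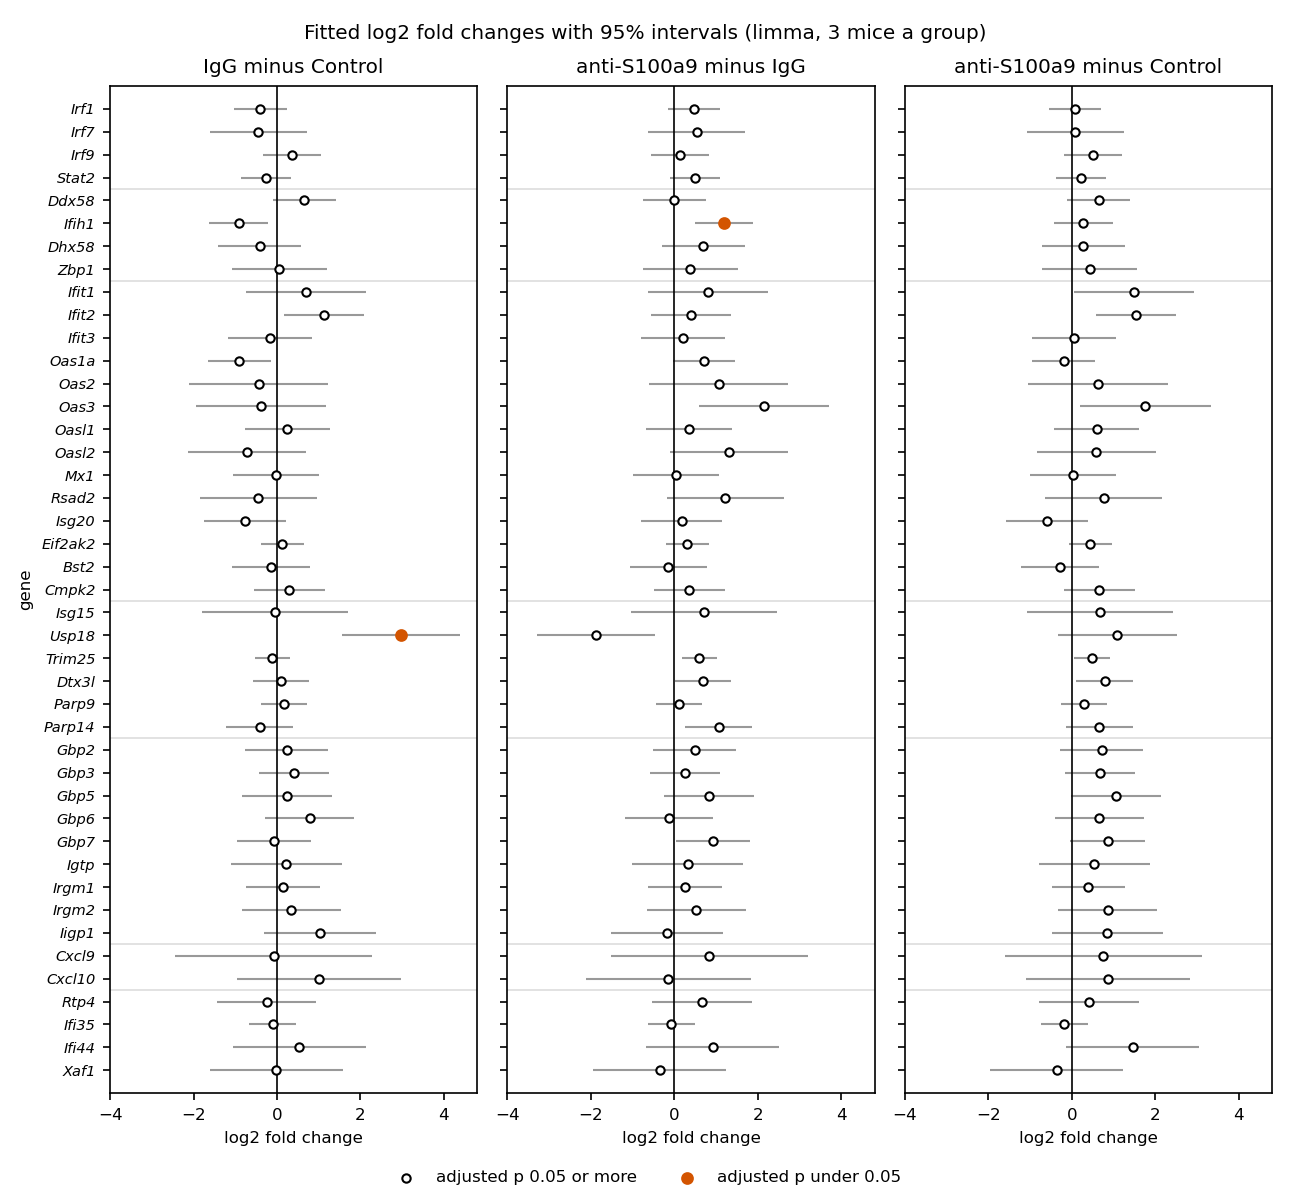
Fitted log2 fold change of each of the 43 members with its 95% interval (limma, 3 mice a group) in the 3 comparisons, which share samples, with filled points for an adjusted p under 0.05. Usp18 passed in the first panel and Ifih1 in the second, and most intervals in each panel crossed 0.

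The count of the second comparison depended on AOM/DSS + IgG Ab replicate 2. Each of the 9 mice was left out in turn, and without this mouse 11 members were higher in the anti-S100a9 mice than in the remaining 2 IgG mice at an adjusted p under 0.05, where 8.93% of all genes were. With any other mouse left out the count was 0 to 2. Calls over all genes then ran from 88 (without anti-S100a9 replicate 2) to 1446 (without Control replicate 3), against 1026 with all 9 mice. The 11 members were Irf1, Stat2, Ifih1, Oas3, Oasl2, Trim25, Parp14, Gbp2, Gbp5, Gbp7 and Irgm1, with log2 fold changes from 0.74 (Trim25) to 2.90 (Oas3). Without the same mouse, Irf1 and Ifih1 were lower in AOM/DSS + IgG Ab than in Control, where 5.18% of all genes were, and with all 9 mice neither was called. Leaving out the mouse that was the highest of its group in most members lowers both the mean and the spread of the 2 mice that remain.

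Promoters of the members held the letters of both interferon elements more often than promoters at large. RefSeq sequence upstream of the annotated start (GRCm38.p6, the 250 bases before each start) was given for 33 of the 43 members in 39 windows, and not for Dhx58, Gbp6, Iigp1, Mx1, Oas2, Parp14, Parp9, Rtp4, Usp18 and Zbp1. The ISRE core was searched as GAAANNGAAA on both strands (TTTCNNTTTC on the other), and the GAS core as TTCNNNGAA, which reads the same on both. The ISRE core was found in 41.0% of the members' windows (16 of 39) and in 2.98% of all 32851 windows, and the GAS core in 25.6% (10 of 39) and 7.02%. By role, 7 of 7 GTPases with a window and 6 of 12 antiviral effectors had an ISRE core, and 4 of 7 and 5 of 12 had a GAS core. The members are known targets of these elements, and a match of letters is a description, not a bound site.

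The windows shown next are from 3 members that were highest in anti-S100a9 replicate 3 (Isg15, Ifit1 and Oas3), from Igtp and Irgm2, of which Igtp was highest in IgG replicate 2, and from Ifih1, the member that passed in the second comparison. Each is given 5′ to 3′ on the strand of its gene, within the 150 bases before the start and without annotated exons, and capitals mark ISRE and GAS cores on either strand. Isg15 is at chr4:156200819-156200968 (minus strand), Ifit1 at chr19:34640744-34640870 (plus strand), Oas3 at chr5:120777662-120777795 (minus strand), Igtp at chr11:58199406-58199555 (plus strand), Irgm2 at chr11:58214827-58214976 (plus strand) and Ifih1 at chr2:62646256-62646405 (minus strand).
Isg15: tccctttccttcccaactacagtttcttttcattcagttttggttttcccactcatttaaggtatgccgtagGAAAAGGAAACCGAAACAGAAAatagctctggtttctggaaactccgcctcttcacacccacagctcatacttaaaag
Ifit1: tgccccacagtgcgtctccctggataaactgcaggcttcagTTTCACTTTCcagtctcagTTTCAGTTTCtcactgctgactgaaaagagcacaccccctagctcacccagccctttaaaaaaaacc
Oas3: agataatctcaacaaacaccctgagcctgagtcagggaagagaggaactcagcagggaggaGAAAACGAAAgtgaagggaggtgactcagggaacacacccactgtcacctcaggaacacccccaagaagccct
Igtp: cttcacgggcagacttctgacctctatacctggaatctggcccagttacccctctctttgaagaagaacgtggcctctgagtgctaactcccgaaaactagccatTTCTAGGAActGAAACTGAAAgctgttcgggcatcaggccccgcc
Irgm2: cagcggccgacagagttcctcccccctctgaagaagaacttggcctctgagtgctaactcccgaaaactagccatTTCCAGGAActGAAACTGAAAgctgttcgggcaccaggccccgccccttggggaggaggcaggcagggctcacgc
Ifih1: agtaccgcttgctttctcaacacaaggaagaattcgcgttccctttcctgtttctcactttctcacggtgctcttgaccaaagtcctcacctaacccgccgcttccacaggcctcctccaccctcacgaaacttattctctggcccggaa

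Isg15 held 3 overlapping ISRE cores from position -78 to -57 before its start, Ifit1 held 2, at -104 to -95 and -85 to -76, and Oas3 held 1, at -75 to -66. In Igtp and Irgm2 a GAS core was followed after 2 bases by an ISRE core, from -45 to -25 in Igtp and from -75 to -55 in Irgm2. The letters of neither core were found in the 250 bases before the start of Ifih1.

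Among the transcription factors, Irf1, which is induced by Ifng and drives many of the other members, was the most highly expressed. Irf1 stood at 41.5, 42.98 and 44.7 FPKM in the Control mice, at 27.6, 53.7 and 23.5 in the IgG mice and at 38.0, 48.9 and 50.8 in the anti-S100a9 mice. Its Control values lay close together, between those of the IgG mice. The log2 fold change was -0.40 (SE 0.28, limma adjusted p = 0.370) for IgG against Control, and without IgG replicate 2 it was -0.75 (adjusted p = 0.024). Irf7, which amplifies the type I response, stood at 26.1, 27.3 and 61.2 FPKM in the Control mice, at 14.3, 44.0 and 27.3 in the IgG mice and at 24.7, 31.6 and 66.3 in the anti-S100a9 mice, with each group holding 1 mouse far above its lowest. Irf9 and Stat2, which both belong to the ISRE-binding complex, ranged from 9.85 to 25.1 FPKM and from 6.46 to 15.6 FPKM. None of the 4 passed the test with all 9 mice in any comparison. Irf7 and Irf9 overlap the genes Phrf1 and Rnf31 in the annotation, so reads may be shared.

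The nucleic acid sensors held the only member that passed in the second comparison. Ifih1, which encodes the sensor MDA5 of long double-stranded RNA, stood at 10.9, 10.2 and 8.27 FPKM in the Control mice, at 3.45, 7.48 and 5.11 in the IgG mice and at 8.53, 11.8 and 16.2 in the anti-S100a9 mice. All 3 IgG mice lay below every other mouse. The gene lies at chr2:62595798-62646255 on the minus strand of GRCm38. Ifih1 rose in AOM/DSS + anti-S100a9 Ab over AOM/DSS + IgG Ab by 1.19 on the log2 scale (SE 0.31, 95% interval 0.49 to 1.90, limma adjusted p = 0.030), or 2.29-fold. Against Control the IgG mice differed by -0.92 (adjusted p = 0.090) and the anti-S100a9 mice by 0.27 (adjusted p = 0.666). The call of the second comparison was lost when IgG replicate 1, IgG replicate 3, anti-S100a9 replicate 2 or anti-S100a9 replicate 3 was left out, with adjusted p from 0.071 to 0.092 and log2 fold changes from 0.92 to 1.19, and when the fit held only the 2 groups compared (adjusted p = 0.053).

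The other sensors did not pass in any comparison. Zbp1, which senses Z-form nucleic acids and can start necroptosis, had the highest mean of the 4 sensors, at 9.79, 9.12 and 13.3 FPKM in the Control mice, at 8.78, 24.7 and 6.07 in the IgG mice and at 9.16, 13.9 and 22.9 in the anti-S100a9 mice. IgG replicate 2 and anti-S100a9 replicate 3 held its highest values. Ddx58, which encodes the RNA sensor RIG-I, had its highest value in IgG replicate 1, at 14.9, 8.74 and 5.55 FPKM in the IgG mice against 7.399, 4.63 and 5.31 in the Control mice and 8.03, 8.64 and 10.3 in the anti-S100a9 mice. Dhx58, which encodes LGP2, a regulator of RIG-I and MDA5, ranged from 3.31 to 14.3 FPKM. The log2 fold change of IgG against Control was 0.66 for Ddx58 (95% interval -0.10 to 1.41) and -0.92 for Ifih1 (95% interval -1.62 to -0.22).

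Among the antiviral effectors, Bst2, which encodes tetherin, a protein that holds budding virus at the membrane, was the most highly expressed. It stood at 49.8, 41.8 and 90.7 FPKM in the Control mice, at 41.2, 84.7 and 39.7 in the IgG mice and at 37.7, 36.5 and 75.1 in the anti-S100a9 mice, and each group again had 1 high mouse. The Ifit genes lie side by side on chromosome 19 and encode proteins that bind foreign RNA. Ifit1 stood at 3.73, 2.86 and 6.91 FPKM in the Control mice, at 4.51, 11.3 and 6.23 in the IgG mice and at 4.15, 17.3 and 23.4 in the anti-S100a9 mice. Its anti-S100a9 mice were split, with replicate 1 near Control and replicates 2 and 3 above all other mice. Ifit2 stood at 2.71, 1.63 and 1.84 FPKM in the Control mice, at 3.41, 7.96 and 3.42 in the IgG mice and at 3.58, 8.81 and 6.97 in the anti-S100a9 mice. Every AOM/DSS mouse lay above every Control mouse for Ifit2, with log2 differences from Control of 1.13 (adjusted p = 0.116) and 1.54 (adjusted p = 0.301), neither of which passed. Ifit3, which has a near-identical neighbour, Ifit3b, ranged from 3.32 to 12.4 FPKM.

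Oas1a, Oas2 and Oas3 encode enzymes that activate RNase L on sensing double-stranded RNA, and lie together on chromosome 5. Their relatives Oasl1 and Oasl2 lie apart from them on the same chromosome. Oas3 stood at 2.57, 1.46 and 3.41 FPKM in the Control mice, at 0.815, 5.25 and 1.25 in the IgG mice and at 3.88, 10.6 and 13.3 in the anti-S100a9 mice. Its lowest values of all 9 mice were in IgG replicates 1 and 3 and its highest in anti-S100a9 replicates 2 and 3. The log2 fold change of anti-S100a9 against IgG was 2.14 (SE 0.69, 95% interval 0.58 to 3.71, limma adjusted p = 0.056), above that of any other member but short of the threshold, and 2.90 without IgG replicate 2 (adjusted p = 0.013). Oas1a, which belongs to a family of near-identical copies, stood at 21.2, 27.4 and 44.7 FPKM in the Control mice, at 9.91, 20.2 and 19.8 in the IgG mice and at 22.7, 26.6 and 28.7 in the anti-S100a9 mice, with every IgG mouse below every other mouse. Its log2 differences of -0.90 (IgG against Control, adjusted p = 0.111) and 0.71 (anti-S100a9 against IgG, adjusted p = 0.146) did not pass. Oasl2 stood at 14.2, 13.2 and 25.8 FPKM in the Control mice, at 5.03, 25.5 and 8.27 in the IgG mice and at 12.9, 28.2 and 45.7 in the anti-S100a9 mice, in the same order of mice as Oas3 within both AOM/DSS groups.

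Rsad2, which encodes the antiviral enzyme viperin, stood at 1.25, 3.92 and 8.33 FPKM in the anti-S100a9 mice against 0.80 to 2.39 FPKM in the other 6 mice. Cmpk2, its neighbour on chromosome 12, was at 2.73, 5.02 and 9.41 FPKM in the anti-S100a9 mice and at 2.91 to 4.36 FPKM elsewhere. Both genes were thus highest in anti-S100a9 replicate 3, while replicate 1 lay among or below the other groups. The remaining effectors were Oas2 (0.732 to 5.76 FPKM), Oasl1 (7.33 to 24.3), Mx1 (0.582 to 1.64), the exonuclease gene Isg20 (2.22 to 11.1) and Eif2ak2 (7.86 to 18.0), which encodes the kinase PKR that stops translation. In all, 0 of 14 effectors found passed the test with all 9 mice, with 5 of 14 fitted fold changes above 0 for IgG against Control, 13 for anti-S100a9 against IgG and 11 for anti-S100a9 against Control. Of all genes, 57.6%, 46.4% and 53.3% were above 0 in the same order.

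The group of Isg15 and the enzymes of ubiquitin-like and ADP-ribose tags held the only member that passed in the first comparison. Usp18, which removes Isg15 from proteins and blocks signalling at the type I interferon receptor, stood at 1.45, 0.674 and 2.19 FPKM in the Control mice, at 22.3, 11.3 and 5.16 in the IgG mice and at 1.65, 2.60 and 5.55 in the anti-S100a9 mice. The 3 IgG mice lay above all Control mice, and the lowest of them lay just below anti-S100a9 replicate 3. Usp18 rose in AOM/DSS + IgG Ab over Control by 2.98 on the log2 scale (SE 0.63, 95% interval 1.56 to 4.40, limma adjusted p = 0.020), or 7.89-fold. The anti-S100a9 mice differed from the IgG mice by -1.88 (SE 0.63, adjusted p = 0.061) and from Control by 1.09 (adjusted p = 0.392). The call against Control was lost without Control replicate 1, Control replicate 2 or IgG replicate 1, with adjusted p of 0.059, 0.075 and 0.053 and log2 fold changes of 3.05, 2.55 and 2.47. Usp18 lies at chr6:121245906-121270917 on the plus strand of GRCm38 and overlaps Gm44148 on the other strand.

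Usp18 and Isg15 did not follow the same mice. Isg15, the ubiquitin-like modifier and the highest of this group, stood at 22.9, 12.5 and 45.4 FPKM in the Control mice, at 11.7, 47.5 and 20.9 in the IgG mice and at 12.6, 48.0 and 86.2 in the anti-S100a9 mice. IgG replicate 1 had the highest Usp18 and the lowest Isg15 of all 9 mice. The log2 fold changes of Isg15 were -0.05 (95% interval -1.80 to 1.70), 0.72 (-1.03 to 2.47) and 0.67 (-1.08 to 2.42) in the 3 comparisons, with the groups overlapping in each.

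Of the other tag enzymes, Trim25, an E3 ligase that activates RIG-I, stood at 19.9, 19.9 and 18.0 FPKM in the Control mice, at 16.8, 21.7 and 15.5 in the IgG mice and at 21.0, 30.4 and 30.7 in the anti-S100a9 mice. Anti-S100a9 replicates 2 and 3 stood above all other mice. The log2 difference from IgG was 0.60 (SE 0.19, adjusted p = 0.051). Parp14, a mono-ADP-ribosyltransferase, stood at 12.9, 11.1 and 9.97 FPKM in the Control mice, at 6.51, 15.1 and 6.17 in the IgG mice and at 13.7, 16.3 and 25.4 in the anti-S100a9 mice, with a log2 difference from IgG of 1.06 (adjusted p = 0.062) that became 1.48 (adjusted p = 0.010) without IgG replicate 2. Dtx3l and Parp9, whose products work as a pair, ranged from 6.25 to 17.7 and from 9.82 to 17.2 FPKM. They overlap on opposite strands of chromosome 16, and as the strandedness of the libraries is not given in the sources used here, their reads may be shared.

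The GTPases, which attack the vacuoles of intracellular microbes and are typical targets of Ifng, were led by Gbp2. Gbp2 stood at 16.9, 20.3 and 16.2 FPKM in the Control mice, at 12.9, 48.4 and 14.4 in the IgG mice and at 24.3, 35.6 and 28.7 in the anti-S100a9 mice. All anti-S100a9 mice lay between IgG replicate 2 and the remaining 2 IgG mice. The log2 difference of anti-S100a9 from IgG was 0.49 (95% interval -0.51 to 1.48, adjusted p = 0.431), and without IgG replicate 2 it was 1.09 (95% interval 0.65 to 1.54, adjusted p = 0.010). Igtp stood at 8.97, 9.79 and 12.8 FPKM in the Control mice, at 9.09, 34.9 and 5.62 in the IgG mice and at 11.7, 12.4 and 24.0 in the anti-S100a9 mice. Iigp1 stood at 2.40, 2.51 and 1.65 FPKM in the Control mice, at 4.26, 11.9 and 1.75 in the IgG mice and at 4.28, 2.74 and 5.31 in the anti-S100a9 mice. For both genes IgG replicate 2 was the highest of all 9 mice and IgG replicate 3 was below the other IgG mice.

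Irgm1, a regulator of these GTPases, ranged from 13.6 to 41.1 FPKM, Irgm2 from 3.62 to 18.3 FPKM, Gbp3 from 3.59 to 12.1 FPKM, Gbp5 from 1.07 to 4.55 FPKM and Gbp7 from 2.05 to 8.02 FPKM. Gbp6, whose symbol has repeated rows that were summed and which has a close copy in Gbp10, ranged from 0.446 to 1.71 FPKM. No GTPase passed with all 9 mice. In the third comparison 9 of 9 fitted fold changes were above 0, against 53.3% of all genes, with a median of 0.71 against 0.04 for all genes. Igtp and Irgm2 overlap on the same strand in the annotation, so fragments in the shared stretch may have been assigned to either.

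The chemokines Cxcl9 and Cxcl10, which draw T cells and NK cells that carry Cxcr3, were expressed at a low level. Cxcl9 stood at 0.554, 1.05 and 1.71 FPKM in the Control mice, at 1.02, 5.46 and 0.083 in the IgG mice and at 2.04, 1.099 and 2.47 in the anti-S100a9 mice. Cxcl10 stood at 0.744, 0.335 and 1.77 FPKM in the Control mice, at 1.18, 4.52 and 0.831 in the IgG mice and at 1.01, 0.629 and 4.98 in the anti-S100a9 mice. IgG replicate 2 again stood far above the other IgG mice, and the intervals of the log2 fold changes were wide, at -1.51 to 3.20 for Cxcl9 and -2.11 to 1.83 for Cxcl10 in anti-S100a9 against IgG.

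Of the 4 other members, Ifi35 was the highest, at 19.7, 18.0 and 33.7 FPKM in the Control mice, at 19.6, 22.7 and 21.7 in the IgG mice and at 18.4, 17.4 and 25.7 in the anti-S100a9 mice. Ifi44 stood at 1.63, 0.567 and 2.19 FPKM in the Control mice, at 1.42, 4.12 and 1.17 in the IgG mice and at 1.42, 5.34 and 6.54 in the anti-S100a9 mice. Ifi44 was at its highest in anti-S100a9 replicates 2 and 3 and in IgG replicate 2. Rtp4 ranged from 5.62 to 26.4 FPKM. Xaf1, a proapoptotic gene, stood at 2.57, 6.35 and 3.40 FPKM in the Control mice, at 2.06, 11.5 and 2.25 in the IgG mice and at 1.56, 2.81 and 5.76 in the anti-S100a9 mice, with its highest value in IgG replicate 2. None of the 4 passed in any comparison.

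**Figure D5:**
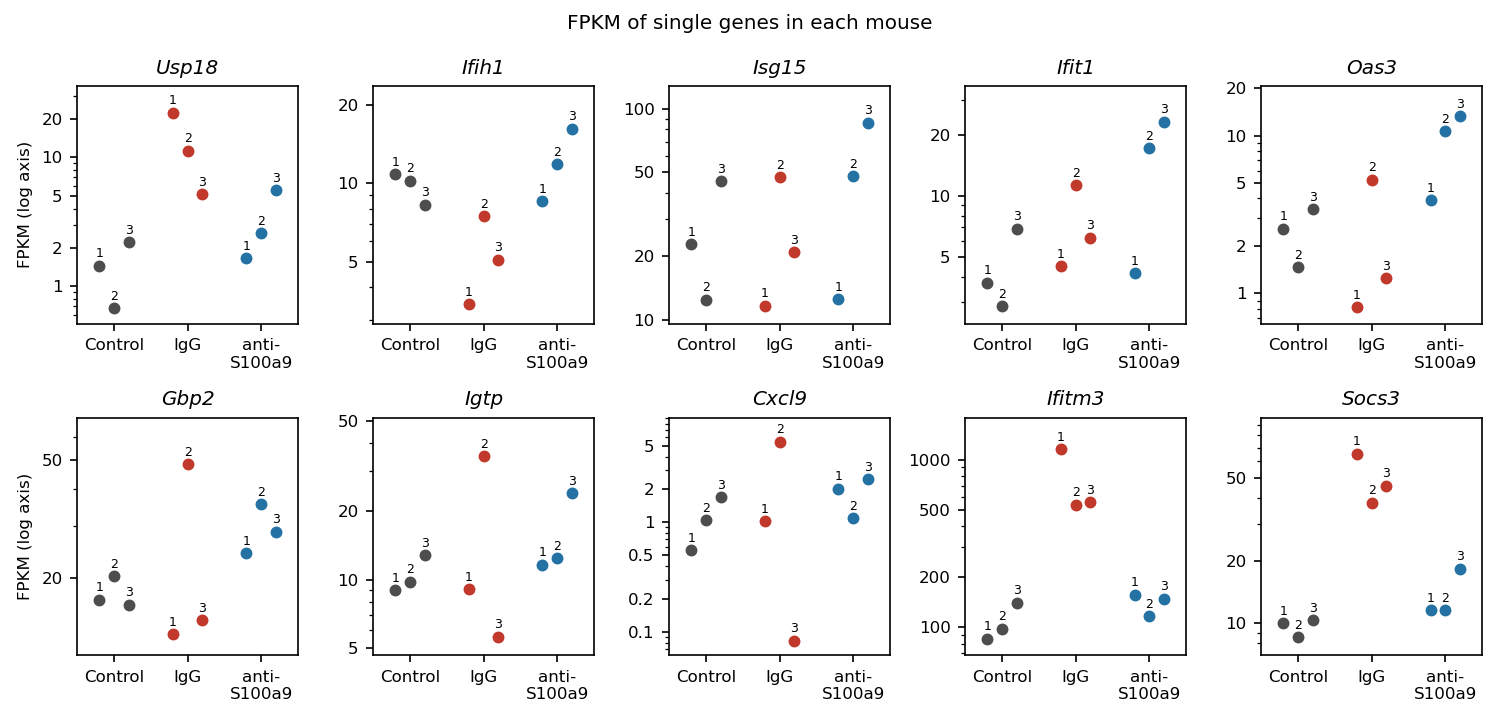
FPKM (log axis, with a range of its own in each panel) of 8 members and of Ifitm3 and Socs3 in each mouse, numbered by replicate. Usp18, Ifitm3 and Socs3 were higher in all IgG mice than in all Control mice, whereas Isg15, Gbp2, Igtp and Cxcl9 were high in IgG replicate 2 and low in at least 1 other IgG mouse.

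The genes upstream of the members, from the interferons to their signalling, were read from further lists. Of 21 interferon genes listed, 20 genes of type I and type III were listed at 0 in all 9 mice, and none of the 21 entered the test. Ifng stood at 0, 0.044 and 0.04 FPKM in the Control mice, at 0, 0.526 and 0 in the IgG mice and at 0.171, 0.035 and 0.037 in the anti-S100a9 mice, and its highest value was in IgG replicate 2, the mouse that led in the GTPases. Its level in the other mice was at or near 0, too low to rank them. Whether Ifng bears on the members' levels was not tested.

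Of the 6 receptor chains, 0 passed against Control (8.18% of all genes were called higher and 3.01% lower), and 0 were higher and 1 lower in AOM/DSS + anti-S100a9 Ab than in AOM/DSS + IgG Ab (6.72% and 14.4% of all genes). Ifngr2, a chain of the Ifng receptor, stood at 37.6, 44.4 and 47.7 FPKM in the Control mice, at 59.0, 50.4 and 54.7 in the IgG mice and at 35.8, 42.7 and 38.4 in the anti-S100a9 mice, and fell between the latter groups by 0.49 on the log2 scale (limma adjusted p = 0.037). Ifngr1 ranged from 61.6 to 124 FPKM, Ifnar1 from 11.0 to 21.8, Ifnar2 from 4.67 to 8.54, Il10rb from 20.7 to 27.4 and Ifnlr1, the chain particular to type III interferon, from 2.48 to 5.86. Their values lay close together within each group, with a median SD on the log2 scale of 0.16, 0.24 and 0.12 in Control, IgG and anti-S100a9 mice.

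Of 12 tested kinases, STATs, IRFs and inhibitors, 2 were higher and 0 lower in AOM/DSS + IgG Ab than in Control (8.18% and 3.01% of all genes), and 2 were higher and 1 lower in AOM/DSS + anti-S100a9 Ab than in AOM/DSS + IgG Ab (6.72% and 14.4%). Socs3, an inhibitor of signalling by Stat3-activating cytokines, stood at 9.99, 8.57 and 10.3 FPKM in the Control mice, at 65.3, 38.0 and 45.8 in the IgG mice and at 11.6, 11.6 and 18.3 in the anti-S100a9 mice. It rose by 2.32 in the first comparison (limma adjusted p = 0.0012) and fell by 1.84 in the second (adjusted p = 0.0045), with no overlap between groups in either. Stat3 rose by 0.72 over Control (adjusted p = 0.010), and Jak1 (0.54, adjusted p = 0.049) and Irf2 (0.52, adjusted p = 0.044) rose in the second comparison. The calls of Jak1, Irf2 and Ifngr2 were lost without any 1 of IgG replicates 1 and 3 and the 3 anti-S100a9 replicates, and without Control replicate 2, that of Irf2 also without Control replicate 1, and that of Stat3 when only the 2 groups compared were fitted. That of Jak1 was also lost with a pseudocount of 0.01, without the filter on low values, without the intensity trend and with only the groups compared, that of Irf2 also without the intensity trend and with only the groups compared, and that of Ifngr2 also with median-of-ratios scaling, quantile normalization and no intensity trend.

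Socs1, which inhibits Ifng signalling and is itself induced by it, stood at 6.95, 4.59 and 10.0 FPKM in the Control mice, at 7.60, 15.6 and 4.77 in the IgG mice and at 6.90, 4.20 and 10.1 in the anti-S100a9 mice. It was highest in replicate 2 among the IgG mice and in replicate 3 among the anti-S100a9 mice, and it did not pass in any comparison.

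Of 12 genes of interferon induction, 1 was higher and 0 lower in AOM/DSS + IgG Ab than in Control (8.18% and 3.01% of all genes), and 3 were higher and 1 lower in AOM/DSS + anti-S100a9 Ab than in AOM/DSS + IgG Ab (6.72% and 14.4%). Tmem173, which encodes STING, the adaptor of cytosolic DNA sensing, stood at 13.98, 8.44 and 17.7 FPKM in the Control mice, at 78.6, 40.8 and 35.7 in the IgG mice and at 18.9, 15.5 and 16.5 in the anti-S100a9 mice. It rose by 1.92 (adjusted p = 0.010) and then fell by 1.52 (adjusted p = 0.020) on the log2 scale. Mavs, the adaptor of RIG-I and MDA5, was higher by 0.64 in AOM/DSS + anti-S100a9 Ab than in IgG mice (adjusted p = 0.026), Tlr7, a sensor of single-stranded RNA, by 1.40 (adjusted p = 0.045), and Irf4, a factor of plasma cells and other lymphocytes, by 2.02 (adjusted p = 0.036). Each of these calls was lost when single mice were left out, that of Tmem173 in the second comparison without any 1 anti-S100a9 mouse, that of Mavs without IgG replicate 1 or 3 or anti-S100a9 replicate 1 or 2, that of Irf4 without IgG replicate 1 or 3, Control replicate 2 or any anti-S100a9 mouse, and that of Tlr7 without any 1 mouse but IgG replicate 3, whereas the call of Tmem173 against Control was kept under all 18 alternatives. With only the groups compared in the fit, those of Irf4 and Tlr7 were lost too, and that of Tlr7 also without the filter on low values.

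Of 47 other interferon-induced genes tested, outside the 45, 4 were higher and 0 lower in AOM/DSS + IgG Ab than in Control, against 8.18% and 3.01% of all genes. In AOM/DSS + anti-S100a9 Ab against IgG mice, 5 were higher and 4 lower, against 6.72% and 14.4% of all genes. The 4 that rose against Control were the membrane proteins Ifitm1, Ifitm2 and Ifitm3, which block virus entry, and Ly6e. The 4 that were lower in the second comparison, which shares the IgG mice, were Ifitm1, Ifitm2, Ifitm3 and Ly6e. Ifitm3 stood at 85.9, 98.5 and 141 FPKM in the Control mice, at 1159, 540.0 and 559 in the IgG mice and at 157, 117 and 149 in the anti-S100a9 mice, and Ifitm1 at 25.1, 22.9 and 37.2 FPKM in the Control mice, at 416, 123 and 123 in the IgG mice and at 40.1, 30.5 and 38.0 in the anti-S100a9 mice. Both were highest in IgG replicate 1, the mouse with the highest Usp18 and with the highest value of 29.8% of all genes, and lower in replicate 2, the highest IgG mouse in 38 members. The log2 fold changes were 2.73 and -2.34 for Ifitm3 (adjusted p = 0.0019 and 0.0051), 2.73 and -2.36 for Ifitm1 (adjusted p = 0.0073 and 0.013) and 1.26 and -1.34 for Ifitm2 (adjusted p = 0.0073 and 0.0068). Ly6e rose by 1.60 (adjusted p = 0.049) and fell by 1.80 (adjusted p = 0.025), and its call against Control was lost under 15 of 18 alternatives, 7 of them without 1 mouse, and its call in the second comparison without IgG replicate 1 or any 1 anti-S100a9 mouse, as that of Ifitm1 was without anti-S100a9 replicate 2.

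The 5 genes that were higher in AOM/DSS + anti-S100a9 Ab than in IgG mice were Ifit1bl1, Slfn5, Helz2, Parp12 and Samd9l. Ifit1bl1, a relative of Ifit1 expressed far above it here, stood at 149, 131 and 117 FPKM in the Control mice, at 26.2, 130.3 and 43.6 in the IgG mice and at 108, 283 and 315 in the anti-S100a9 mice. IgG replicates 1 and 3 were the lowest of all 9, and the log2 difference was 2.00 (adjusted p = 0.041). The log2 differences were 1.93 for Slfn5 (adjusted p = 0.031), 1.32 for Helz2 (adjusted p = 0.024), 1.11 for Parp12 (adjusted p = 0.039) and 1.09 for Samd9l (adjusted p = 0.022). Against Control, AOM/DSS + anti-S100a9 Ab differed in 0 of the 47 genes at an adjusted p under 0.05, where 1 of all 15278 genes was higher and 1 lower. The calls of all 5 genes were lost without IgG replicate 1 or 3 and without anti-S100a9 replicate 2 or 3, those of all but Ifit1bl1 also without replicate 1, and those of Ifit1bl1 and Parp12 also without Control replicate 1 or 2, without the intensity trend and with only the groups compared, and that of Ifit1bl1 without the filter on low values too (9 of 18 alternatives lost each).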

How the data were processed

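Colon RNA of 9 mice was sequenced, 3 mice for each of 3 groups, and groups were taken from the GEO labels. The deposited values are read as FPKM. The files do not name the unit, and it was taken from the values (decimal, never negative, summing to 308377 to 408811 per sample) and from Cufflinks among the tools in the submitters' processing notes, which also name TopHat, HTSeq, DESeq and GRCm38, without versions. The annotation and strandedness are not given in the sources used here. No counts were used, so no count model was fitted, and FPKM totals do not give sequencing depth.

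Members were matched by symbol, and rows that repeat a symbol (46 rows, 1 member) were summed. log2(FPKM + 0.1) was fitted with limma 3.58.1 (R 4.3.3; group means, empirical Bayes with an intensity trend) over all 9 mice and the 15278 genes that reached 0.1 FPKM in 3 or more samples. Adjusted p-values are Benjamini-Hochberg values over these genes, and all tests are two-sided. Fold changes on this scale understate changes of low genes. The fit was tested on simulated data. Alternatives changed the pseudocount, filter, scaling, trend, samples fitted, threshold and replicate block, or left out each mouse. Positions come from GENCODE M21 and promoters from RefSeq, both GRCm38. Figures were drawn with matplotlib 3.10.9.

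The members and lists were chosen with earlier results of these data known. Each member may be named. Values in every sample are given for members that passed and for the highest of each role, and the other members shown by sample were chosen after their values were seen. Of the further lists, genes that passed, interferons, receptors and Socs1 are named, and 1 further gene is not reported here. P-values measure the spread between mice, which the study describes as biological replicates.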

Additional observations from a re-analysis of the deposited data

How the results depend on the processing

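Single genes were tallied only where they passed in a comparison, or for members at a limma unadjusted p under 0.05. Reversals were thus unlikely from the start. Of the alternative values of these genes, 592 kept their direction and side of the threshold, 116 no longer passed, 12 passed newly and 0 reversed. Members outside this choice did reverse, as Isg15 in IgG against Control did, at -0.59 to 0.42 with 1 mouse left out. With all 9 mice, the members called higher in AOM/DSS + IgG Ab than in Control numbered 1, and 0 to 1 with 1 mouse left out (0 without Control replicate 1, Control replicate 2 or IgG replicate 1), and those called lower numbered 0, and 0 to 2. With 1 mouse left out, calls over all genes ran from 511 to 1383 higher and from 80 to 784 lower, of 15120 to 15224 genes. Members higher in the anti-S100a9 mice than in the IgG mice numbered 1, and 0 to 11 with 1 mouse left out. They numbered 2 after median-of-ratios scaling (Ifih1 and Trim25), 3 after quantile normalization (Ifih1, Parp14 and Trim25) and 0 when only the 2 groups compared were fitted. Over all genes, 1192, 1389 and 1051 were called higher under these settings in turn, against 1026 without these changes. With 1 mouse left out, 88 to 1446 of all genes were called higher. Lower members numbered 0, and 0 to 1 with 1 mouse left out (Usp18 without IgG replicate 3), while 428 to 2668 of all genes were called lower. By the study's thresholds, applied to limma p-values, 2 members were higher against Control for IgG (8.43% of all genes). For anti-S100a9 against IgG 3 were higher and 1 lower (7.64% and 8.38%), and against Control 3 were higher (2.28%). The cause of these shifts was not tested. With FPKM alone, depth cannot be set beside any value.

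The labels do not say whether equal replicate numbers pair the mice, and deviations within groups of 3 mice cannot decide it. These deviations from group means correlated by 0.154, -0.187 and 0.091 between Control and IgG replicates 1 to 3, by -0.134, 0.249 and 0.112 between Control and anti-S100a9, and by 0.123, 0.103 and -0.049 between IgG and anti-S100a9. With the replicate number as a block, 1 member was lower in AOM/DSS + IgG Ab than in Control (Oas1a) and 2 were higher in AOM/DSS + anti-S100a9 Ab than in AOM/DSS + IgG Ab (Ifih1 and Trim25), and the other counts of members did not move. Under the block 494 of 15278 genes were lower in the former comparison and 1135 higher in the latter, against 460 and 1026 without it. The calls of Jak1 and Tlr7 in the latter comparison were lost under the block. Not every mouse correlated best with its own number.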
